A study of Mus musculus with 4 samples.

Results

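Kdr, Flt1, Tek and Tie1 encode the endothelial receptors of the VEGF and angiopoietin systems, and Vegfa, Vegfc, Angpt1 and Angpt2 encode ligands that act on them. These 8 genes were taken by symbol from the 32285 genes of the feature lists. All 8 were detected, and all 8 passed the low-count filter when every retained cell was summed. The cells came from the aorta-gonad-mesonephros region (AGM) of C57BL/6J mouse embryos at E11.5 and had been sorted as CD31-positive. They had been split by TMRM, a dye taken up according to mitochondrial membrane potential, into an MMPlow and an MMPhigh fraction with 2 single-cell libraries each. The labels give no other treatment or allele, and they do not say whether libraries of a fraction came from separate embryos, so the p-values measure only the spread between these libraries. The comparison addresses how transcription differs between fractions that separate the function of haematopoietic stem cells.

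VEGF receptor 2, the product of Kdr, is the main signalling receptor for VEGF-A on endothelium, while the product of Flt1 binds VEGF-A tightly and acts largely as a decoy in the embryo. VEGF-C acts through the receptor encoded by Flt4 and can also act through Kdr. Tek encodes Tie2, which angiopoietin 1 activates and angiopoietin 2 activates or blocks according to context, and Tie1 is a related receptor that modulates Tie2. In the embryo these systems drive the formation, sprouting and stabilisation of blood vessels, including the aorta from which blood stem cells arise.

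The libraries differed in depth and in make-up. MMPlow 1 and 2 kept 15865 and 18583 cells, while MMPhigh 1 and 2 kept 4183 and 3418 cells. Their median unique molecular identifier (UMI) counts per cell were 3089, 3651, 3787 and 23668.5. MMPhigh 2 therefore stood apart in depth, and levels are given as CPM, the UMIs of a gene scaled to all UMIs of the summed cells. Endothelial-like cells, named from 15 endothelial markers that leave out the 8 genes, made up 48.5% and 50.5% of the MMPlow cells but 16 cells (0.383%) and 14 cells (0.410%) in MMPhigh. Although all cells were labelled CD31-positive, the summed level of the 15 markers was 138 CPM on average in MMPhigh against 2802 CPM in MMPlow. Between 7 and 83 barcode sequences were shared between any pair of libraries among the retained cells.

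The 4 receptor genes had similar patterns over the sums of cells by class and library. Their start regions are shown here to set that pattern beside sequence. The 250 bases upstream of each RefSeq start (build GRCm38.p6) are printed 5′ to 3′ on the strand of the gene. Capitals mark GGAA, the core bound by ETS factors, a family known for its role in endothelial gene expression, or TTCC, the same core on the other strand. Kdr is at chr5:75978456-75978705, minus strand, Flt1 at chr5:147726012-147726261, minus strand, Tek at chr4:94739039-94739288, plus strand, and Tie1 at chr4:118489850-118490099, minus strand.
Kdr: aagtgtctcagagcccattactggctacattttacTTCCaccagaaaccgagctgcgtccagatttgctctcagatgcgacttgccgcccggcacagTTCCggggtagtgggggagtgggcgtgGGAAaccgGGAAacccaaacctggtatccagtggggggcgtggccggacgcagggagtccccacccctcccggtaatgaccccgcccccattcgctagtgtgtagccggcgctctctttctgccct
Flt1: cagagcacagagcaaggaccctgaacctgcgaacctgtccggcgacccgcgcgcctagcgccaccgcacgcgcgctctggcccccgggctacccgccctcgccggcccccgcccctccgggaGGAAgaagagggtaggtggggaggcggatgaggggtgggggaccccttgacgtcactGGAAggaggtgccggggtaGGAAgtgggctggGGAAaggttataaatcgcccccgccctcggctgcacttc
Tek: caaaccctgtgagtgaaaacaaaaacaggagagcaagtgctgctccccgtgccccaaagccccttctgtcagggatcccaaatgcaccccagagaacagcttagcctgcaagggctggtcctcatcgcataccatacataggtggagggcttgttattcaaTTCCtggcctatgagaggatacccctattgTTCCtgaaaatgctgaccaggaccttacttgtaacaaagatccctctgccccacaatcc
Tie1: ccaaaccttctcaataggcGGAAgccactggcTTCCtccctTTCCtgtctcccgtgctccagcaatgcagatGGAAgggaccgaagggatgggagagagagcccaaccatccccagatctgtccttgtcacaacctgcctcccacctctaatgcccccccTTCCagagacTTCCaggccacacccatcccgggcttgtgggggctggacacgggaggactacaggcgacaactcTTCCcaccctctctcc
The core occurred 4 times upstream of Kdr, 4 times upstream of Flt1, 2 times upstream of Tek and 7 times upstream of Tie1. Of 32851 promoters in the same table, 93.4% held at least 1 copy and the median was 3, so holding the core does not set these genes apart. Of the 8 genes, 6 had an entry, and Angpt1 and Angpt2 had none.

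Kdr was highest in endothelial-like cells. Its level there was 613 and 646 CPM in MMPlow 1 and 2, from 7699 and 9380 cells, and 688 and 994 CPM in MMPhigh 1 and 2, from 16 and 14 cells. The next class with a name in MMPlow, the granulocyte or mast-like cells, held 175 and 162 CPM, so the ranges did not overlap. After thinning each cell to 2000 UMIs, 68.3% and 69.9% of MMPlow endothelial-like cells had a Kdr UMI.

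Flt1 had its highest level in endothelial-like cells too, at 835 and 825 CPM in MMPlow and 582 and 1068 CPM in MMPhigh. Next among the named classes of MMPlow were the mural-like cells, at 243 and 239 CPM. These are the pericyte and smooth muscle type cells that wrap vessels. No other receptor had mural-like cells in second place.

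Tek reached 398 and 425 CPM in endothelial-like cells of MMPlow, and 289 and 346 CPM in those of MMPhigh. Tie1 stood at 197 and 183 CPM in MMPlow and 151 and 289 CPM in MMPhigh. Among the named classes of MMPlow, megakaryocyte-like cells held the second highest level of Tie1, with 110 and 89.5 CPM. Their range did not overlap with that of endothelial-like cells. In total, endothelial-like cells, 49.5% of the MMPlow cells on average, gave 86.2% of Kdr UMIs, 88.2% of Flt1 UMIs, 88.6% of Tek UMIs and 80.5% of Tie1 UMIs.

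**Figure D1:**
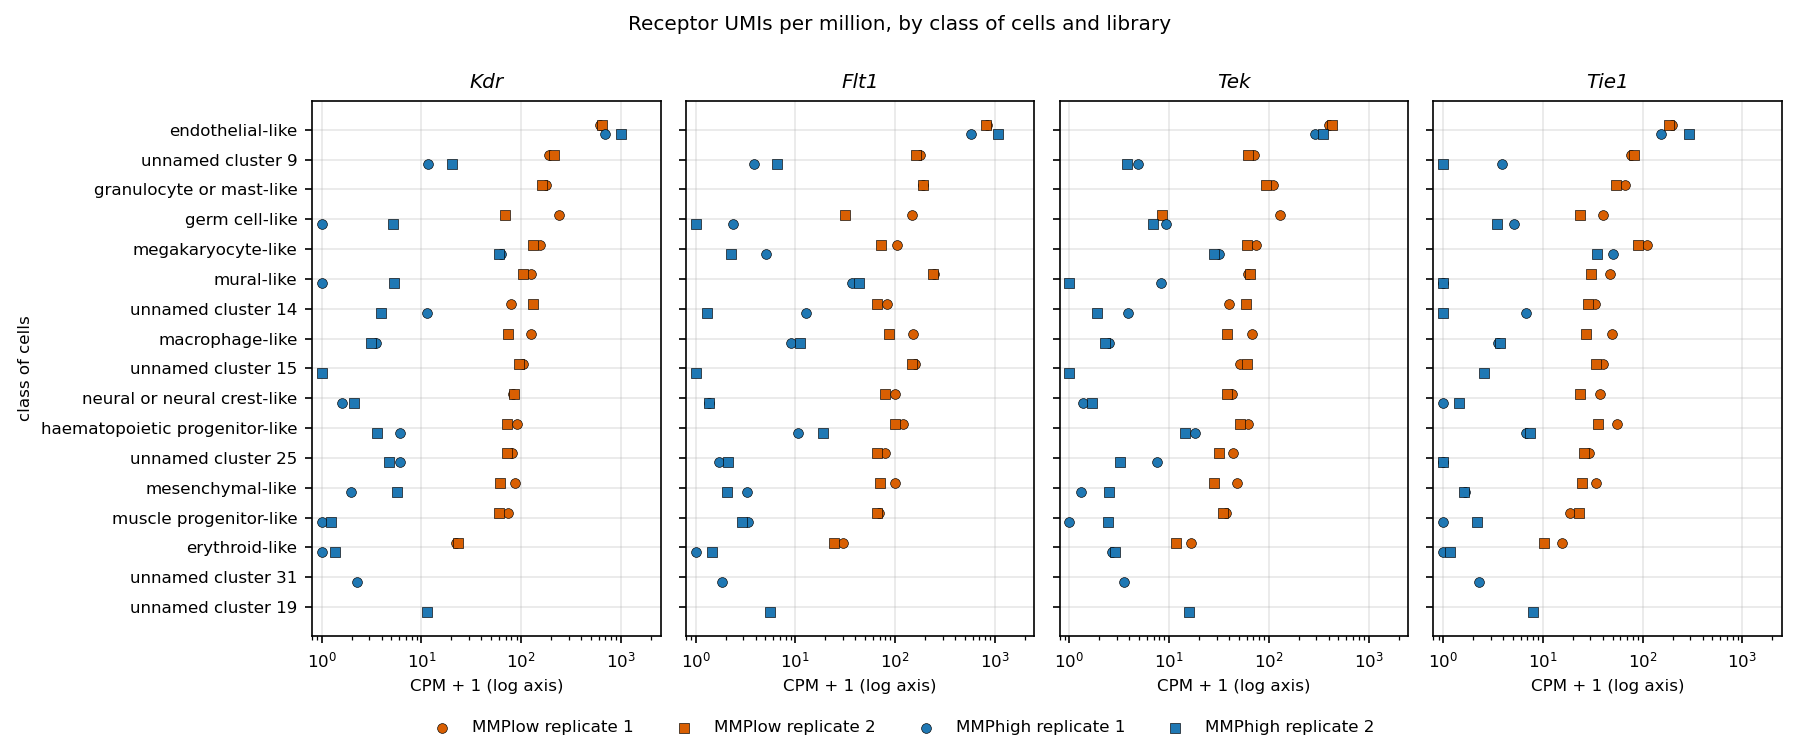
Levels of Kdr, Flt1, Tek and Tie1 (horizontal axes, CPM + 1, log scale) in each class of cells (vertical axis), with 1 point per library that held at least 20 cells, or at least 10 for endothelial-like and mural-like cells. MMPlow libraries (orange) show a receptor signal in every class, whereas in MMPhigh (blue) the points of most classes outside endothelial-like and megakaryocyte-like cells lie near the left edge.

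Every other class of MMPlow held some receptor UMIs, and so a comparison with endothelial RNA as a whole was needed. It was assumed that RNA leaking from endothelial cells into other droplets carries its genes in 1 ratio, which was not measured. The receptor UMIs per 1000 UMIs of the 15 endothelial markers were therefore compared between each of 14 other classes or clusters and the endothelial-like cells of the same library. A class at or below the endothelial ratio holds no more of a receptor than endothelial RNA at the level of its markers would bring, which does not show that the class lacks the gene. Tek was at or below the endothelial ratio in both MMPlow libraries in 14 of 14 classes, Flt1 in 13, Kdr in 11 and Tie1 in 6.

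Tie1 was above the endothelial ratio in both libraries in megakaryocyte-like cells alone, with 102 and 100.2 UMIs per 1000 against 40.7 and 37.6 in endothelial-like cells. Kdr was above it there by less, with 142 and 145 against 127 and 133, and in unnamed cluster 14, which is led by Thsd7b, Neurod1 and Isl1. Flt1 was above it in mural-like cells alone, with 219 and 248 against 173 and 170.

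**Figure D2:**
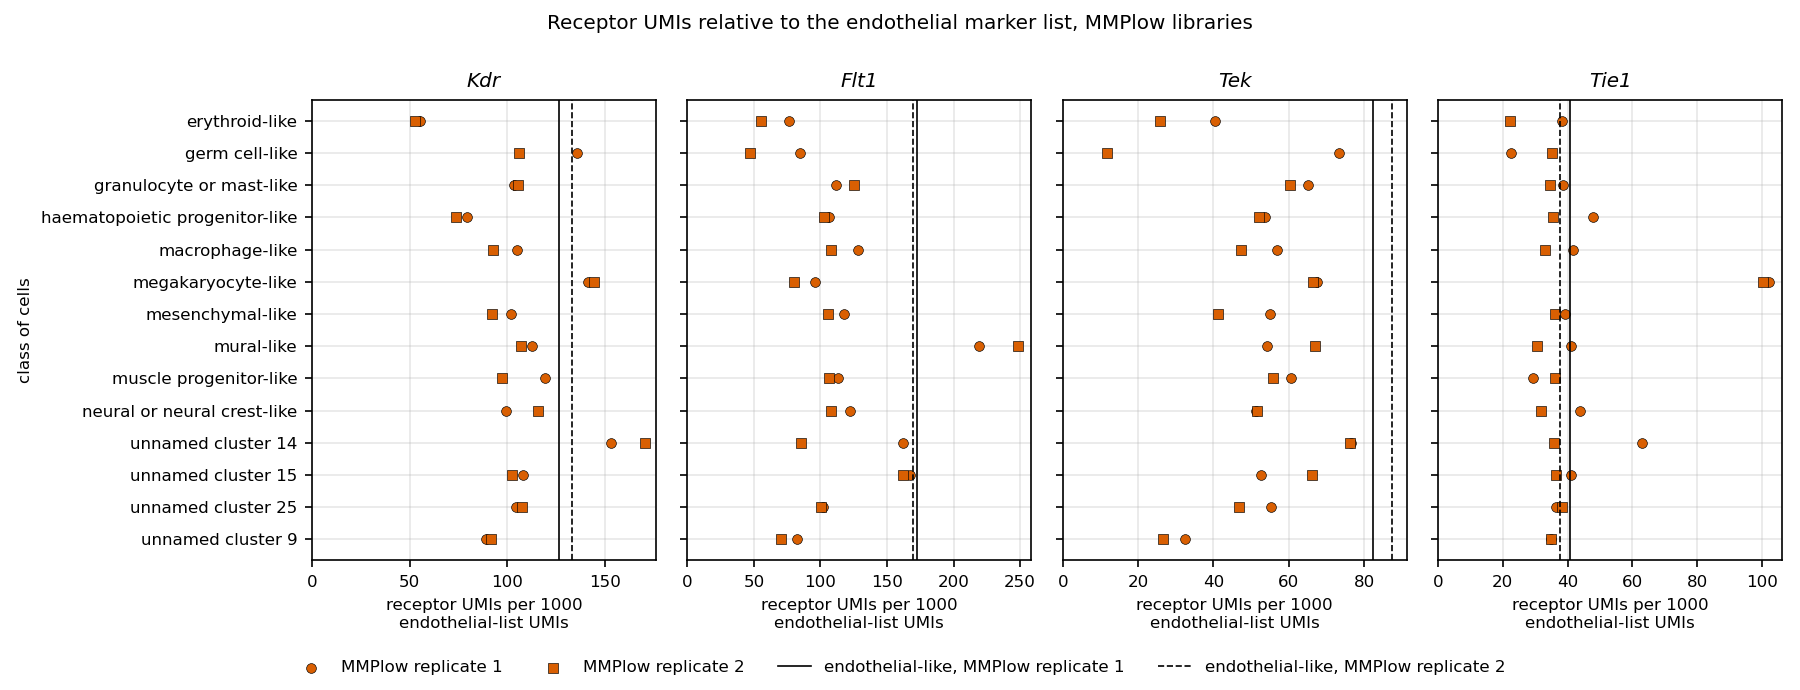
Receptor UMIs per 1000 UMIs of the endothelial marker list (horizontal axes) in each class other than endothelial-like (vertical axis) for MMPlow 1 (circles) and MMPlow 2 (squares); vertical lines give the endothelial-like cells of each library. Points left of the lines are at or below the endothelial ratio, and the megakaryocyte-like points for Tie1 (102 and 100.2) and the mural-like points for Flt1 (219 and 248) lie to the right.

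In MMPhigh, where endothelial-like cells were almost absent, the receptors outside endothelium stood out by class. Megakaryocyte-like cells held 62.1 and 58.3 CPM of Kdr, 30.3 and 27.1 CPM of Tek and 49.7 and 34.2 CPM of Tie1 in MMPhigh 1 and 2, but only 4.14 and 1.28 CPM of Flt1. For Kdr, Tek and Tie1 these were the highest levels of any class with at least 20 cells in both MMPhigh libraries, and the ranges did not overlap with the class that came next. Kdr stood 4.03 times and Tie1 6.95 times above that class. Megakaryocyte-like cells gave 27.2% of the Kdr UMIs, 23.1% of the Tek UMIs and 38.7% of the Tie1 UMIs of MMPhigh on average, while making up 3.38% of its cells.

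Haematopoietic progenitor-like cells divided by cluster in MMPhigh. Cluster 0, led by genes that include Flt3, Il7r and Hlf, held Flt1 at 25.02 and 62.7 CPM, from 15 and 82 UMIs, and Tek at 1.67 and 9.18 CPM. Cluster 1, led by genes that include Muc13, Myb and Ermap, held Flt1 at 0 in both libraries and Tek at 26.8 and 16.1 CPM, from 25 and 48 UMIs. Thus Flt1 UMIs lay in 1 progenitor-like cluster and most Tek UMIs in the other, in both MMPhigh libraries. In MMPlow both clusters held both genes, with Flt1 at 155 and 147 CPM in cluster 0 and 61.0 and 39.6 CPM in cluster 1. A small MMPlow cluster of the same class, cluster 23, held Kdr at 411 and 363 CPM and Flt1 at 628 and 656 CPM, from 85 and 66 cells, well above the other clusters of the class named here. Its first leading genes were Gm15261, Aspn, Ogn and Lrrc4, which are not known as progenitor markers. The cluster held no MMPhigh cells, so its UMIs entered only the MMPlow sums of the class. Its part in the receptor differences of that class was not tested.

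Macrophage-like cells held 8.04 and 10.2 CPM of Flt1 in MMPhigh. Within that class, cluster 18, led by Ccr2, Cd52 and Plac8, held Flt1 at 8.79 and 29.3 CPM, from 28 and 135 UMIs. Kdr in the same cluster was 2.83 and 2.17 CPM.

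The ligands were distributed over other cells. In GENCODE vM21 (GRCm38) Vegfa lies at chr17:46016993-46032369 on the minus strand and Vegfc at chr8:54077606-54187096 on the plus strand. Vegfa, the ligand of Kdr and Flt1, was sparse everywhere. In MMPlow it was highest in unnamed cluster 25, led by genes that include Unc5c, Wt1 and Gata4, with 29.9 and 32.3 CPM, and in granulocyte or mast-like cells, with 22.4 and 33.9 CPM from 10 and 43 UMIs. The mean of the latter class, 28.1 CPM, was 9.29 CPM at a Leiden resolution of 0.5. There the class held 729 and 913 MMPlow cells rather than 129 and 290. The mean was 9.84 CPM with the 8 genes among the clustering genes and 14.3 CPM under the stricter cell filter. Mesenchymal-like cells held 19.9 and 19.7 CPM and muscle progenitor-like cells 20.1 and 17.8 CPM. Endothelial-like cells were low, at 6.39 and 6.11 CPM. Among 11 classes with at least 20 cells in both MMPhigh libraries, cluster 25 also had the highest mean of Vegfa, from 21.0 and 27.5 CPM, beside 23.0 and 22.4 CPM in mesenchymal-like cells, and those ranges overlapped.

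Vegfc, the ligand of Flt4, was highest in endothelial-like cells, with 107 and 124 CPM in MMPlow. That mean of 115 CPM was 74.6 CPM under the stricter cell filter. Mesenchymal-like cells held 49.1 and 49.1 CPM there and 55.0 and 58.2 CPM in MMPhigh, and cluster 25 held 53.6 and 44.5 CPM in MMPlow and 82.6 and 40.5 CPM in MMPhigh. Set against the endothelial marker list in MMPlow, Vegfc was above the endothelial ratio in both libraries in 5 of the 14 classes, which were the mesenchymal-like, mural-like, muscle progenitor-like and neural or neural crest-like cells and cluster 25. Of the Vegfc UMIs of MMPlow, 80.3% lay in endothelial-like cells. In MMPhigh the neural or neural crest-like cells gave 35.8% and the mesenchymal-like cells 27.2%.

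Angpt1, the activating ligand of Tie2, was highest in megakaryocyte-like and haematopoietic progenitor-like cells in MMPlow. Megakaryocyte-like cells held 492 and 513 CPM in MMPlow and 357 and 373 CPM in MMPhigh, and haematopoietic progenitor-like cells 392 and 494 CPM in MMPlow and 187 and 169 CPM in MMPhigh. Endothelial-like cells held 14.5 and 23.2 CPM in MMPlow. After thinning, 53.8% and 55.1% of MMPlow megakaryocyte-like cells had an Angpt1 UMI, against 2.99% and 4.27% of endothelial-like cells. These 2 blood classes gave 27.2% and 43.0% of the Angpt1 UMIs of MMPlow from 5.89% and 10.7% of its cells.

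Among the progenitor-like clusters Angpt1 differed widely. Cluster 29, led by Ifitm1, Cpa3 and Hdc, genes known from mast cells and basophils in the case of Cpa3 and Hdc, held 980 and 1119 CPM in MMPlow, the highest mean of any cluster in that fraction. Cluster 0 held 685 and 774 CPM and cluster 1 held 115 and 128 CPM. Mesenchymal-like cells, at 113 and 123 CPM, and cluster 25, at 140 and 153 CPM, also held the gene. In MMPhigh cluster 25 held 285 and 155 CPM, a mean second to that of megakaryocyte-like cells, and its range overlapped with that of haematopoietic progenitor-like cells.

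Angpt2, the context-dependent ligand of Tie2, was highest in mural-like cells, with 145 and 187 CPM in MMPlow and 159 and 125 CPM in MMPhigh, the latter from 16 and 15 cells. The MMPlow mean of 166 CPM was 80.3 CPM at a Leiden resolution of 0.5. There the mural-like class held 811 and 900 MMPlow cells rather than 274 and 282. Haematopoietic progenitor-like cells came next in MMPlow with 159 and 71.4 CPM, so the ranges overlapped.

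**Figure D3:**
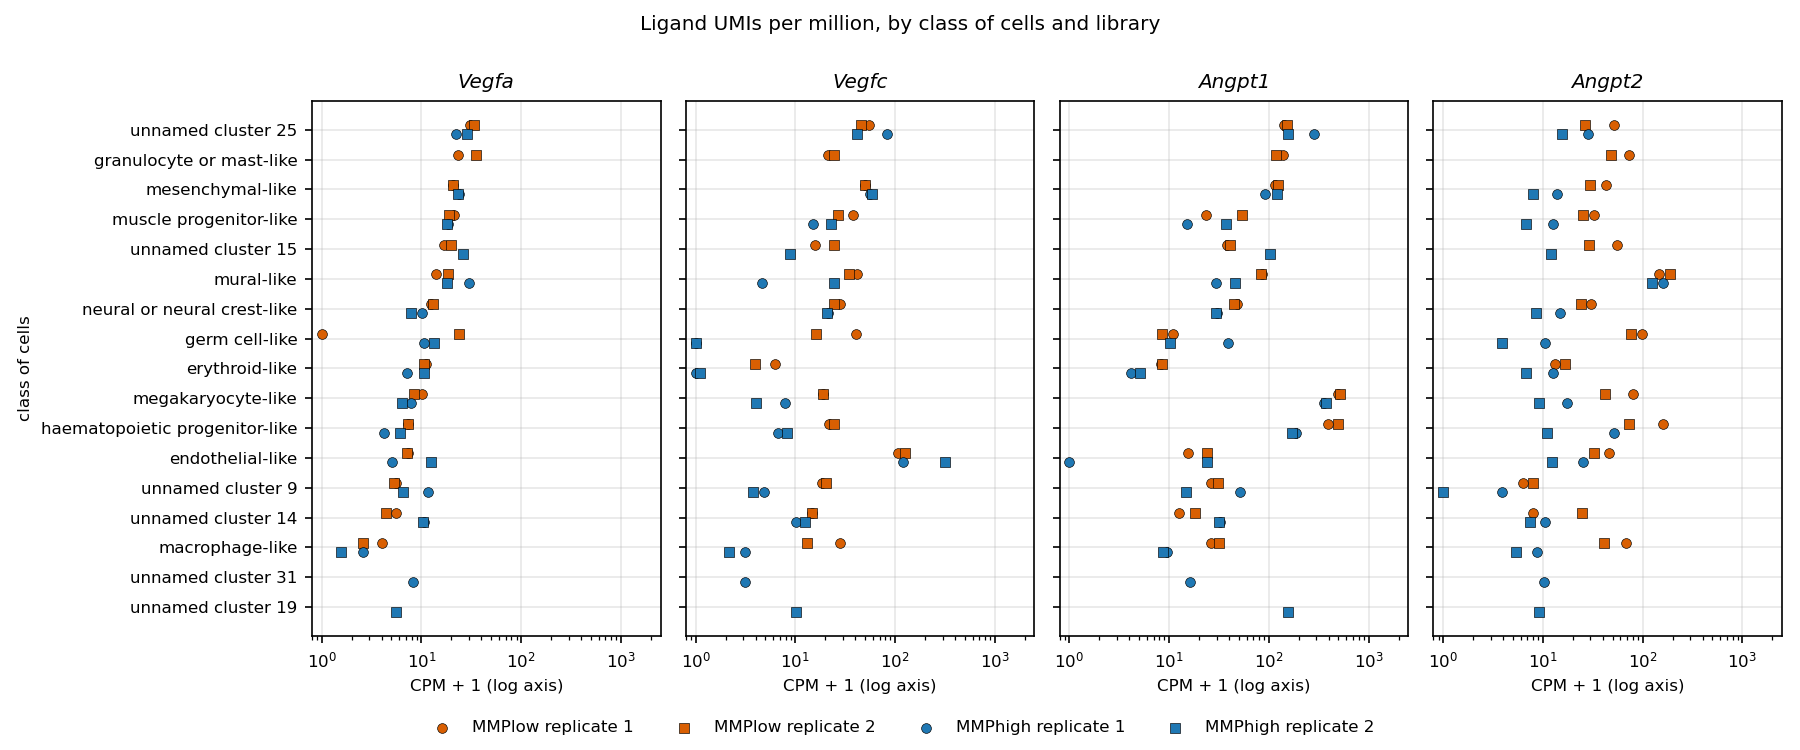
Levels of Vegfa, Vegfc, Angpt1 and Angpt2 (horizontal axes, CPM + 1, log scale) in each class of cells (vertical axis), 1 point per library, MMPlow in orange and MMPhigh in blue. In MMPlow, Angpt1 is highest in megakaryocyte-like and haematopoietic progenitor-like cells and Vegfc in endothelial-like cells, in MMPhigh unnamed cluster 25 is second for Angpt1 (285 and 155 CPM), and the 4 mural-like points of Angpt2 lie between 125 and 187 CPM.

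Over 55 sums of a class in a library, the 4 receptor genes had the patterns most alike. As a description, Pearson's r of log2(CPM + 10) was 0.957 between Kdr and Tie1, 0.953 between Tek and Kdr and 0.946 between Tek and Tie1, and it was lowest at 0.894 between Flt1 and Tie1. These sums share libraries and depth, so r carries no p-value. Only sums of at least 20 cells entered, so endothelial-like cells entered from MMPlow alone. In every other class that entered from both fractions, the summed endothelial markers were lower in MMPhigh. In neural or neural crest-like cells, for example, they averaged 769 CPM in MMPlow and 25.7 CPM in MMPhigh. The part of this difference in r was not tested. Among 10058 genes, those most like Kdr were Plxnd1, Esam and Tie1 (r of 0.966, 0.963 and 0.957), and those most like Flt1 were Ptprb, Emcn and Plxnd1 (0.981, 0.970 and 0.969). Those most like Tek were Kdr, Thsd1 and Tie1, and those most like Tie1 were Esam, Kdr and Tek, all at r of 0.946 to 0.975. Esam and Emcn are endothelial surface proteins and were among the markers used to name the endothelial-like cells, and Ptprb encodes the phosphatase VE-PTP, which acts on Tie2.

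The ligands were less like the receptors than the receptors were like each other. With the receptors, r was between 0.595 and 0.675 for Angpt2, between 0.448 and 0.560 for Vegfc, between 0.0640 and 0.255 for Angpt1 and between -0.108 and -0.0214 for Vegfa. Between pairs of ligands it was 0.143 to 0.482. For Vegfa, the most similar genes, A630012P03Rik, Hs3st3b1 and Fras1, had r of 0.758, 0.755 and 0.752. Vegfc was most like Ldb2, Flrt2 and Bcl2 (0.935, 0.929 and 0.894). Angpt1 was most like Arhgap6, Meis1 and Prkca (0.820, 0.748 and 0.739), of which Meis1 is a transcription factor of blood progenitors and megakaryocytes.

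Within the endothelial-like cells of MMPlow, 12 sub-clusters made without the 8 genes differed in receptor and ligand levels. The sharpest pattern was that of Vegfc. The arterial-like sub-cluster, defined by arterial markers that include Gja5 and Gja4, held 736 and 867 CPM of Vegfc. The next sub-cluster, led by Lrrc3b, Nav3 and Col15a1, held 137 and 168 CPM, and the lowest, led by Cdc20 and Cenpa, 24.9 and 26.9 CPM, so the arterial-like range stood apart from all others. The same arterial-like cells had the highest Flt1, at 1183 and 1252 CPM, and the highest Tie1, at 292 and 284 CPM, and for both genes the range did not overlap with the next.

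Lymphatic-like cells, defined by markers that include Prox1, had the lowest Flt1 and Tek of all 12 sub-clusters. Flt1 was 232 and 233 CPM there, below the 446 and 410 CPM of the sub-cluster next to them. Tek was 163 and 181 CPM, against 240 and 256 CPM in the sub-cluster next to them, so neither range overlapped. Kdr was 442 and 514 CPM in these cells, within the range of the other sub-clusters.

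Tek was highest in sub-cluster 0, led by Tll1, Egfem1 and Slit3, at 623 and 669 CPM, above the 434 and 568 CPM of the sub-cluster next in order. Kdr means ran from 401 to 763 CPM. The gene was highest in sub-cluster 8, led by Cdh2, Spock2 and Apcdd1, at 723 and 803 CPM, which overlapped with sub-cluster 0. Vegfa averaged 22.6 CPM in arterial-like cells and 23.8 CPM (18.1 and 29.4 CPM) in sub-cluster 6, led by Gata4, Oit3 and Stab2, and these ranges overlapped. The 8 sub-clusters other than these, the lymphatic-like one and the 74-cell sub-cluster 11 stood between 0.6 and 10.3 CPM. Angpt1 was highest in sub-cluster 10, at 71.3 and 135 CPM, from 27 and 433 UMIs in 67 and 688 cells. Most cells of that sub-cluster thus came from MMPlow 2. It was led by Hbb-y, Hba-x, Gpc6, Dcc, Runx1 and Dlg2, none of which is among the 15 endothelial markers. Kdr stood there at 462 and 340 CPM. Whether the sub-cluster holds 1 type of cell was not tested. Angpt2 was highest on average in lymphatic-like cells, at 90.6 and 52.9 CPM, which overlapped with sub-clusters 11, 1 and 4. It was lowest in sub-cluster 7, led by Cdc20 and Cenpa, at 9.97 and 9.37 CPM.

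**Figure D4:**
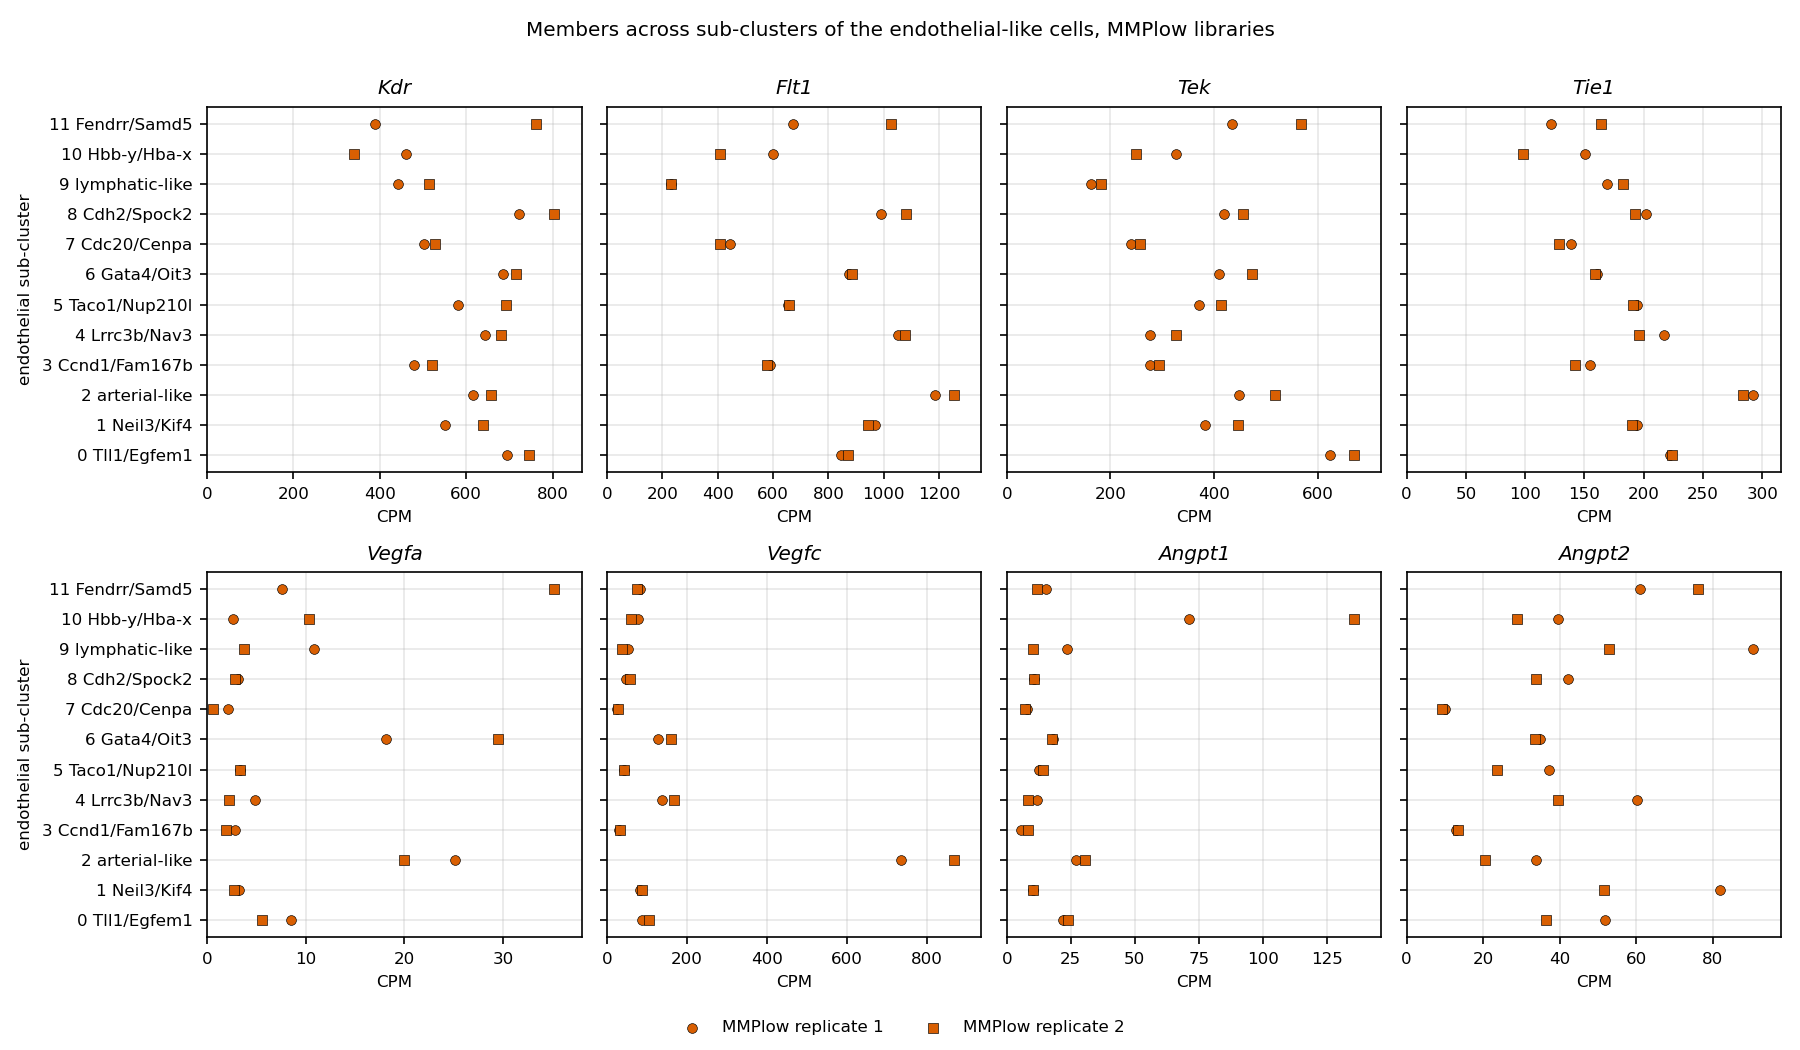
Levels of the 8 genes (horizontal axes, CPM) in 12 sub-clusters of endothelial-like cells (vertical axis, number with 2 leading genes or the marker-based name), MMPlow 1 as circles and MMPlow 2 as squares. Vegfc in the arterial-like sub-cluster (736 and 867 CPM) lies far from all others, and Flt1 and Tek are lowest in the lymphatic-like one.

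When every retained cell was summed, the sorted fractions differed in 7 of the 8 genes. All 7 were lower in MMPhigh by edgeR's quasi-likelihood test with Benjamini-Hochberg adjustment over 20410 genes at a threshold of 0.05, where 26.5% of all genes were lower and 53.7% changed in either direction. Kdr fell from 347 and 351 CPM to 9.18 and 7.17 CPM, a log2 change of -5.40 ± 0.15 (SE, edgeR adjusted p = 2.25e-07). Flt1 fell by 5.86, Tek by 5.59 and Tie1 by 4.84 on the log2 scale. In these sums, fewer cells of a type and less RNA per cell cannot be told apart.

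The ligands fell by less or not at all. Vegfc went from 65.7 and 71.4 CPM to 14.7 and 14.1 CPM (log2 change -2.22 ± 0.09, edgeR adjusted p = 8.46e-07). Angpt1 went from 95.9 and 115 CPM to 57.8 and 49.0 CPM (-0.95 ± 0.13, edgeR adjusted p = 0.000621), a call lost under the stricter cell filter (-0.53, adjusted p = 0.0893). Angpt2 went from 59.8 and 37.7 CPM to 14.1 and 7.16 CPM (-2.20 ± 0.41, edgeR adjusted p = 0.0105), and its call was lost without MMPlow 1 (adjusted p = 0.138), without MMPlow 2 (adjusted p = 0.0508), and without MMPhigh 2 (adjusted p = 0.05005). Vegfa was 8.90 and 8.86 CPM in MMPlow and 8.77 and 8.12 CPM in MMPhigh, a log2 difference of -0.04 ± 0.12 (edgeR adjusted p = 0.793). Its groups did not overlap, but lay within 1 CPM of each other.

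Other genes of the pathways were counted in the same sums, where edgeR called 53.7% of all genes in either direction and 26.5% lower, so the counts are given as a description only. The 3 further VEGF receptors and co-receptors all fell, Flt4 by 5.86, Nrp2 by 1.56 and Nrp1 by 1.38 on the log2 scale. Of 3 further ligands, Vegfd and Pgf rose by log2 changes of 0.80 and 0.58 and Vegfb was not called, at 13.7 CPM on average in MMPlow and 15.9 CPM in MMPhigh. Of 6 other Tie system genes, 4 fell and 1 rose, with Ptprb the furthest down at -6.17, then Foxo1 at -1.91 and Angpt4 at -1.11. Of 9 genes known to respond to VEGF, 7 fell, led by Apln at -5.25, Nos3 at -5.18 and Esm1 at -4.20, and of 10 genes of the oxygen response, 5 fell and 1 rose, led by Epas1 at -4.45, Adm at -2.63 and Slc2a1 at -1.72. The median log2 change was -1.56 for the receptors and co-receptors, -0.79 for the Tie genes, -1.48 for the VEGF-responsive genes and -0.30 for the oxygen-response genes, against 0.01 over all genes tested.

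Without the endothelial-like cells, the same 7 genes were called lower, where 21.4% of all genes were. Kdr was then 102 and 82.2 CPM in MMPlow and 4.94 and 3.94 CPM in MMPhigh, so a large difference remained among cells not named endothelial-like. Of the further receptors and co-receptors, Flt4 was still called lower, at 17.4 and 0.338 CPM on average. Nrp1, at 166 and 130 CPM, and Nrp2, at 91.6 and 80.8 CPM, were not. Vegfb, at 16.6 and 16.0 CPM, and Pgf, at 2.75 and 2.66 CPM, were not called, and Ptprb fell from 45.8 to 0.909 CPM. The endothelial marker list moved with the receptors, from 1011 and 852 CPM to 121 and 103 CPM in the same sums. Its part in the result was not tested. Unnamed cluster 9, which stayed in these sums, held that list at 2133 and 2310 CPM in MMPlow 1 and 2, from 518 and 721 cells.

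Inside the endothelial-like class edgeR called 0 of the 8 genes, where 1.46% of all genes were called and 0.874% were lower, and DESeq2 called 0 as well. The comparison rested on 30 MMPhigh cells, of which 3 and 2 were in the arterial-like and 2 and 1 in the lymphatic-like sub-cluster in MMPhigh 1 and 2, against 451 and 565 and 140 and 167 of the 7699 and 9380 MMPlow cells. The part of this unequal make-up in the differences was not tested. At an unadjusted p under 0.05, 3 genes passed in edgeR, namely Kdr (log2 difference 0.39 ± 0.18), Tek (-0.40 ± 0.17) and Vegfc (0.95 ± 0.37). Angpt2 had the largest difference of the 8, at 44.9 and 31.9 CPM in MMPlow and 24.4 and 11.4 CPM in MMPhigh (-1.22 ± 0.61, edgeR adjusted p = 0.416), on 6 and 4 UMIs in MMPhigh. Angpt1 was 14.5 and 23.2 CPM in MMPlow and 0 and 22.9 CPM in MMPhigh (-0.54 ± 1.07, edgeR adjusted p = 0.854), and these groups overlapped. Vegfc was called with the replicate number as a block (adjusted p = 0.0448) and without the low-count filter (adjusted p = 5.03e-05). Leaving out MMPhigh 1 called Kdr (0.62, adjusted p = 0.000862), Tie1 (0.57, adjusted p = 0.0211) and Vegfc (1.41, adjusted p = 3.53e-07), and leaving out MMPhigh 2 called Flt1 lower (-0.53, adjusted p = 0.0343), so single libraries decided these calls. Of 8 VEGF-responsive genes tested there, 2 rose, Esm1 from 11.9 to 51.4 CPM (log2 change 2.17 ± 0.38, edgeR adjusted p = 0.00593) and Dll4 from 20.9 to 55.3 CPM (1.41 ± 0.30, edgeR adjusted p = 0.0232), and none fell. Both are known tip-cell genes of sprouting vessels. Whether the rises reflect such cells or the unequal make-up of the sub-clusters, the arterial-like one included, was not tested. These 2 calls rest on the same 30 MMPhigh cells and are given for the main setting only. Nrp1, at 558 and 726 CPM on average, Nrp2, at 426 and 605 CPM, Flt4, at 117 and 177 CPM, and Ptprb, at 393 and 483 CPM, were not called. Vegfb was 10.5 and 5.50 CPM, and Pgf was 0.829 CPM in MMPlow with no UMI in MMPhigh.

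Outside endothelium, 8 classes had enough cells in all 4 libraries to be tested. Of 59 pairs of a gene and a class that passed the low-count filter, 43 were called lower in MMPhigh by the same edgeR test, among them all 30 receptor pairs. In erythroid-like, mesenchymal-like, muscle progenitor-like and neural or neural crest-like cells the receptors averaged 0.0882 to 2.85 CPM in MMPhigh, and up to 88.8 CPM in MMPlow. In germ cell-like cells, Kdr, Flt1 and Angpt2 were 30.3 to 237 CPM in MMPlow and 0 to 9.60 CPM in MMPhigh. Such genes passed the filter through MMPlow, where they were high, and could then only be lower, so the counts of pairs are a description and support nothing. Tie1 and Tek in muscle progenitor-like cells lost their calls without single MMPlow libraries (adjusted p = 0.154 to 0.573) and Flt1 in germ cell-like cells without either MMPhigh library (adjusted p = 0.0607 and 0.167). In neural or neural crest-like cells Flt1 lost its call under the looser cell filter (adjusted p = 0.181) and at Leiden resolutions of 0.5 (0.0993) and 2 (0.260), and Tie1 under the looser filter (0.0810) and at a resolution of 2 (0.0773). By class, the counts of the 8 genes called lower were 5 in erythroid-like cells (6.73% of all genes there), 6 in haematopoietic progenitor-like (15.1%, and 30.4% in either direction), 7 in macrophage-like (16.0%, and 33.2% in either direction), 6 in megakaryocyte-like (8.98%), 5 in mesenchymal-like (11.2%), 5 in muscle progenitor-like (1.71%) and 6 in neural or neural crest-like cells (15.3%). In germ cell-like cells the 3 genes that passed the filter were called lower (2.82%).

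The receptor differences were large in classes with few receptor UMIs in MMPhigh. In neural or neural crest-like cells Kdr was 81.7 and 83.0 CPM in MMPlow and 0.596 and 1.10 CPM in MMPhigh. The log2 change was -6.32 ± 0.21 (edgeR adjusted p = 1.97e-06). With the cells clustered at a Leiden resolution of 2 it was -4.44 (edgeR adjusted p = 0.0689). In the same class 15 of the 15 endothelial markers were called lower, and their sum went from 769 CPM to 25.7 CPM on average. Across the 8 classes between 8 and 15 of the markers were called lower in each and none was called higher, out of 10 to 15 tested. Of all genes, 1.71% to 16.0% were called lower in these classes. Markers that passed the filter through MMPlow, where they were high, could only be lower, so these counts are a description and support nothing. The part of these markers in the receptor differences was not tested.

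Megakaryocyte-like cells had the smallest fall of Kdr among the 8 classes in which it was tested, and of Tek and Tie1 among the 7 classes in which they were. Kdr fell by 1.09 on the log2 scale (SE 0.16, edgeR adjusted p = 0.000471), Tek by 1.07 (SE 0.18, edgeR adjusted p = 0.00174) and Tie1 by 1.16 (SE 0.19, edgeR adjusted p = 0.00111). Flt1 in these cells fell by 5.21 (SE 0.36), from 103 and 71.7 CPM to 4.14 and 1.28 CPM. After thinning, 25.5% and 23.5% of MMPlow and 10.0% and 11.8% of MMPhigh megakaryocyte-like cells had a Kdr UMI. Without thinning the shares were 36.3% and 41.6% against 28.6% and 62.4%, and the deep MMPhigh 2 held the highest. The exact two-sided permutation test of the thinned shares gave p = 0.333, the smallest possible with 2 libraries against 2. In the same cells 14 of the 15 endothelial markers were called lower, where 8.98% of all genes were. The median log2 change of the 15 markers was -6.25. Their summed level was 984 CPM in MMPlow and 281 CPM in MMPhigh on average. The difference between classes in the size of the fall was not tested.

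Vegfa was not called in any of the 7 classes outside endothelium in which it passed the filter, nor in endothelial-like cells. In mesenchymal-like cells it was 19.9 and 19.7 CPM in MMPlow and 23.0 and 22.4 CPM in MMPhigh (log2 difference 0.24 ± 0.17, edgeR adjusted p = 0.407). Vegfc was called lower in erythroid-like, haematopoietic progenitor-like, macrophage-like and megakaryocyte-like cells, none of which was above the endothelial ratio in both MMPlow libraries. The megakaryocyte-like call was lost without MMPlow 1 (adjusted p = 0.0725), without MMPlow 2 (adjusted p = 0.0648), without MMPhigh 2 (adjusted p = 0.0722) and at a Leiden resolution of 2 (-1.28, adjusted p = 0.0534), and the erythroid-like call without MMPlow 1 (adjusted p = 0.0591). In mesenchymal-like cells, a class with more Vegfc than most, the log2 difference was 0.25 ± 0.12 (edgeR adjusted p = 0.193), and in neural or neural crest-like cells it was -0.28 ± 0.16 (edgeR adjusted p = 0.216), but called lower without doublet removal (-0.45, adjusted p = 0.0402).

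Angpt1 fell in 3 of the 7 classes outside endothelium in which it was tested. In haematopoietic progenitor-like cells it fell by 1.01 on the log2 scale (SE 0.19, edgeR adjusted p = 0.00204), in macrophage-like cells by 1.57 (SE 0.17, edgeR adjusted p = 0.000393; -0.45 with adjusted p = 0.276 under the looser cell filter) and in neural or neural crest-like cells by 0.59 (SE 0.13, edgeR adjusted p = 0.0103), the last lost without MMPlow 1 (adjusted p = 0.0590), under the looser cell filter (-0.37, adjusted p = 0.158) and the stricter one (-0.15, adjusted p = 0.744), and turned to 0.18 at a Leiden resolution of 2 (adjusted p = 0.687). Erythroid-like cells gained a call under the looser cell filter (-1.66, edgeR adjusted p = 0.00196) and the stricter one (-0.75, edgeR adjusted p = 0.0104), and muscle progenitor-like cells without MMPhigh 2 (-1.37, edgeR adjusted p = 0.0289). Haematopoietic progenitor-like cells had no test under the looser or stricter cell filter, without doublet removal or at a Leiden resolution of 0.5. None of the calls in that class was therefore checked there. The progenitor-like clusters were unequally filled. Cluster 29, the one richest in Angpt1, held 285 and 364 cells in MMPlow and fewer than 20 in each MMPhigh library. Within cluster 0 Angpt1 was 685 and 774 CPM in MMPlow and 140 and 330 CPM in MMPhigh. In cluster 1 it was 115 and 128 CPM against 177 and 47.2 CPM, and the groups overlapped. At a Leiden resolution of 2, a progenitor-like cluster led by genes that include Hlf and Mpo held 309 and 347 MMPlow and 2 and 16 MMPhigh cells. One led by genes that include Il7r and Flt3 held 126 and 197 against 54 and 42. Whether cluster 0 was itself unequally filled in this way was not tested. The macrophage-like class was likewise held by other clusters in each fraction, mostly cluster 17 in MMPlow and clusters 16, 18 and 22 in MMPhigh.

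No difference in Angpt1 was called in megakaryocyte-like or mesenchymal-like cells. Megakaryocyte-like cells had a log2 difference of -0.32 ± 0.16 (edgeR adjusted p = 0.191), with both MMPhigh libraries below both MMPlow libraries. Mesenchymal-like cells held 113 and 123 CPM in MMPlow and 89.9 and 121 CPM in MMPhigh (-0.10 ± 0.13, edgeR adjusted p = 0.661), and these groups overlapped. Angpt1 overlaps the opposite-strand gene Gm17473 at its 5′ end, as chr15:42424723-42676977 on the minus strand of GRCm38.

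Angpt2 needs a separate reading because of where it lies. In GENCODE vM21 (GRCm38) the gene occupies chr8:18690263-18741562 on the minus strand, wholly inside the protein-coding gene Mcph1, which runs on the opposite strand from 18595131 to 18803189. How strand and intronic reads were counted is not given in the sources used here, so Angpt2 UMIs cannot be told apart from reads that arise within Mcph1. The 3 genes whose pattern over the 55 sums was most like Angpt2 were Gm26749, Lrrc4 and 1600010M07Rik (r of 0.916, 0.900 and 0.899). All 3 lie opposite protein-coding genes, Gm26749 inside Birc6 and Lrrc4 inside Snd1. Of the 50 genes most like Angpt2, 24 (48.0%) lay wholly inside a protein-coding gene on the other strand, against 1.66% of the 10058 genes compared and 2.0% to 8.0% of the 50 genes most like each of the other 7.

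Mural-like cells did not follow this pattern. Angpt2 there was 1.28 and 1.53 times Mcph1 in MMPlow and 1.52 and 1.93 times in MMPhigh, and 0.628 or less in every other class and library of at least 20 cells. Gm26749 in mural-like cells was 96.4 and 63.0 CPM in MMPlow and 18.0 and 2.15 CPM in MMPhigh, while Angpt2 stayed between 125 and 187 CPM. In haematopoietic progenitor-like cells, by contrast, the 4 libraries stood in the same order for both genes, with Angpt2 at 159, 71.4, 50.3 and 10.1 CPM and Gm26749 at 124, 58.3, 26.1 and 8.10 CPM in MMPlow 1, MMPlow 2, MMPhigh 1 and MMPhigh 2. Angpt2 was called lower in 6 of the 8 classes outside endothelium, and 4 of these calls depended on a setting. The call in muscle progenitor-like cells was lost with DESeq2 (adjusted p = 0.263) and without MMPlow 1, MMPlow 2 or MMPhigh 2 (0.603, 0.433 and 0.198), and that in germ cell-like cells without MMPhigh 1 or MMPhigh 2 (0.168 and 0.270). The call in neural or neural crest-like cells was lost without MMPlow 1 or MMPlow 2 (0.171 and 0.110), under the stricter cell filter (0.342) and at a Leiden resolution of 2 (0.156), and that in megakaryocyte-like cells under the looser cell filter (0.0738). The 2 classes without a call gained one with the replicate number as a block, haematopoietic progenitor-like cells at a log2 change of -1.88 (edgeR adjusted p = 1.32e-05) and erythroid-like cells at -0.90 (edgeR adjusted p = 0.0341). Erythroid-like cells also gained it without the low-count filter (-0.82, edgeR adjusted p = 0.0229) and without MMPhigh 1 (-1.31, edgeR adjusted p = 5.37e-06). Mcph1 itself was called lower in only 1 of those 6 classes, macrophage-like cells (-0.42, edgeR adjusted p = 0.0264, against -2.96 for Angpt2). In mesenchymal-like cells its log2 difference was 0.04 (edgeR adjusted p = 0.899) against -1.88 for Angpt2, and in megakaryocyte-like cells -0.12 (edgeR adjusted p = 0.660) against -2.30. In the 6 classes 18.4% to 58.3% of the nested opposite-strand genes tested were called lower, against 1.71% to 16.0% of all genes. Their share also lay above that of all genes in haematopoietic progenitor-like and erythroid-like cells, where Angpt2 was not called. The excess was thus not particular to classes with an Angpt2 call, and it is given as a description only. The source of the Angpt2 UMIs outside mural-like cells was not tested, and the levels there are uncertain. At the main setting mural-like cells, 16 and 15 in MMPhigh, were too few to be tested. A wider mural-like class was fitted under the looser cell filter and at a Leiden resolution of 0.5, and its values are not given here.

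**Figure D5:**
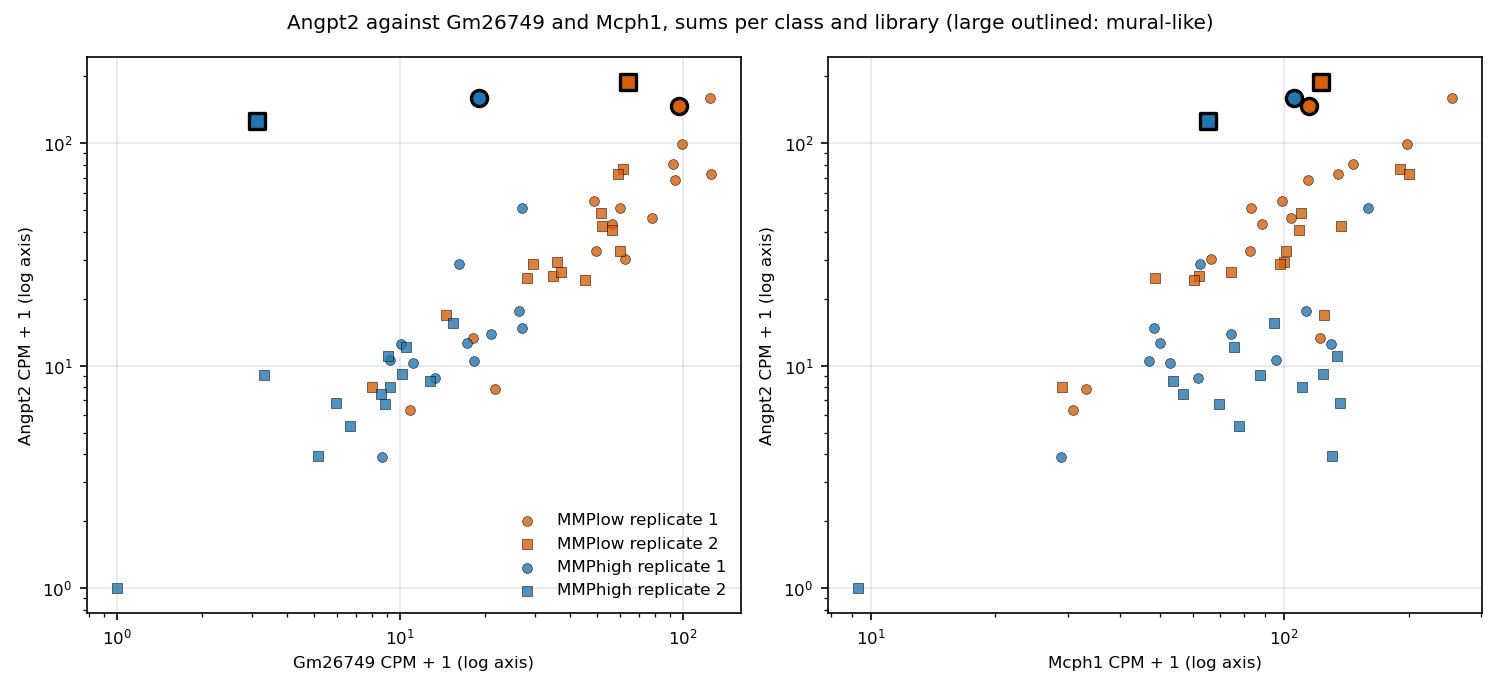
Angpt2 (vertical axes, CPM + 1, log scale) against Gm26749 and Mcph1 (horizontal axes, CPM + 1, log scale), 1 point per class and library, MMPlow in orange and MMPhigh in blue, with mural-like cells as large outlined points. The mural-like points keep Angpt2 between 125 and 187 CPM while Gm26749 runs from 2.15 to 96.4 CPM, and among the other points Angpt2 is higher where Gm26749 is higher.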

How the data were processed

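Raw UMI counts, deposited by the authors with 1 value per gene and barcode, were read from 4 droplet libraries (10x Genomics 3' chemistry, version 3, at most 10000 cells a lane), with barcode and gene lists (unit other, per the labels no measurement). Cell Ranger 7.0.1 made the counts, per the file headers, while Cell Ranger 2.1.1 and build mm10 are named per the submitters' processing notes. The treatment of strand and introns is not given in the sources used here. The libraries held 4288 to 59928 barcodes and 51800709 to 120168395 UMIs. Barcodes with at least 2000 UMIs, at least 1000 genes and under 25% mitochondrial UMIs were kept. Doublets were removed by Scrublet, whose automatic calls numbered 2 and 0 in MMPlow 1 and MMPhigh 1, where the top 5% of scores were removed instead. Between 68 and 996 cells were removed per library.

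Cells were clustered with scanpy 1.11.5 (Python 3.11.15; 2000 variable genes without the 8 genes, 30 components, 15 neighbours, Leiden resolution 1, and 0.8 within endothelial-like cells), and clusters were named from 14 marker lists, with thresholds for a name set after the clusters had been seen. This gave 11 named classes and left 6 clusters unnamed. Counts were summed per class and library and tested with edgeR 4.0.16 (R 4.3.3; quasi-likelihood, TMM, filterByExpr, Benjamini-Hochberg over all genes of a fit, threshold 0.05), fitted on classes of at least 20 cells in every library, or 10 for endothelial-like cells. The script was tested on simulated data. Alternatives were DESeq2 1.42.0, RLE scaling, no low-count filter, other cell filters, no doublet removal, other resolutions, the replicate number as a block and leaving out each library. CPM is the UMI count of a gene scaled to all UMIs of the sum. Shares of cells were computed after thinning to 2000 UMIs, leaving no retained cell out. The 8 genes are named in every comparison; pathway genes are named if always listed or among the 3 largest called changes of their list, and the 3 most similar genes are named for each of the 8. Values of single clusters, and the genes set beside Angpt2, were chosen after their values had been seen. The genes and lists were chosen with earlier results of these data known. Counting error and the number of libraries, 2 a fraction, limit the precision.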

Additional observations from a re-analysis of the deposited data

Results flagged for a closer look

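Kdr in endothelial-like cells was higher in both MMPhigh libraries than in both MMPlow libraries, with a log2 difference of 0.39, while in 8 classes both MMPhigh libraries were lower. In mesenchymal-like cells Vegfa differed by 0.24 and Vegfc by 0.25 on the log2 scale in the same upward direction, opposite to 5 and 6 classes. None of these 3 differences passed edgeR's threshold, and the difference between classes was not tested.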

How the results depend on the processing

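Of the 8 genes, between 6 and 7 were called in all retained cells under every alternative run. Of the gene and class pairs, endothelial-like cells included, 43 of 67 tested were called in the main run. In that run edgeR called 1.46% to 33.2% of all genes in these classes, and 53.7% in all retained cells. The pair counts ran from 32 of 54 under the stricter cell filter to 47 of 72 without the low-count filter. The share of all genes called changed with the setting too. Genes that passed the filter through MMPlow, where they were high, could only be lower. The pair counts are therefore a description and support nothing. Leaving out a library gave 6 to 7 genes and 36 to 45 pairs. All genes called in all retained cells ranged from 7753 to 11884 (main 10963), with 7753 to 10903 when a library was left out. With the replicate number as a block, 7 genes, 11094 of all genes and 46 pairs were called. The labels do not say that numbers pair the libraries, and same-numbered libraries deviated together with r = 0.118 in all cells, 0.267 in macrophage-like and 0.0204 in mesenchymal-like cells. The named class with the highest MMPlow level stayed the same for 5 of the 8 genes at a Leiden resolution of 0.5, where Vegfa led in mural-like and Angpt1 and Angpt2 in granulocyte or mast-like cells; the cause was not tested. It stayed for 7 at resolution 2 and for 6 with the 8 genes among the clustering genes, Angpt1 moving to haematopoietic progenitor-like cells in both and Vegfa to mesenchymal-like cells in the latter. It stayed for 6 under the stricter filter (Angpt1 in granulocyte or mast-like, Vegfa in muscle progenitor-like cells), and for 8 and 7 without MMPlow 1 and MMPlow 2 (Angpt2 in haematopoietic progenitor-like cells). Angpt2 in all cells had adjusted p = 0.130 without the low-count filter, and Angpt1 0.0893 under the stricter cell filter. Angpt1 in neural or neural crest-like cells turned to 0.18 at resolution 2 (adjusted p = 0.687). All other changes of sign were in differences not called. Flt1 in endothelial-like cells was 0.0509 with RLE scaling, 0.0341 with DESeq2 and 0.26 under the stricter cell filter, where Angpt1 was 0.13. Vegfa in erythroid-like cells was 0.18 under the looser cell filter, 0.00549 under the stricter one and 0.18 at resolution 0.5, and in muscle progenitor-like cells 0.0939 under the looser one. Leaving out a library moved Vegfa in all cells between -0.11 and 0.0310, in endothelial-like cells between -0.64 and 0.83, in erythroid-like cells between -0.58 and 0.00870, in haematopoietic progenitor-like cells between -0.70 and 0.0808 and in muscle progenitor-like cells between -0.18 and 0.0330. It moved Flt1 in endothelial-like cells between -0.53 and 0.32, Tie1 between -0.35 and 0.57 and Angpt1 between -11.84 and 0.22, and Angpt1 in mesenchymal-like cells between -0.33 and 0.0818 and in muscle progenitor-like cells between -1.37 and 0.36. Where an arm kept 1 library, it was assumed to vary like the other arm. The 30 endothelial-like cells of MMPhigh limit what could be detected there.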

Other observations

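The co-receptors of the VEGF system, Nrp1 and Nrp2, were also held by classes outside endothelium. Nrp1, which encodes neuropilin 1, was 336 CPM on average in MMPlow and 247 CPM in MMPhigh macrophage-like cells (edgeR adjusted p = 0.214). In neural or neural crest-like cells Nrp1 fell from 188 to 113 CPM (log2 change -0.67 ± 0.10, edgeR adjusted p = 0.00212), and Nrp2 was 203 and 182 CPM (edgeR adjusted p = 0.394). In mesenchymal-like cells Nrp1 fell from 148 to 111 CPM (edgeR adjusted p = 0.0251) and Nrp2 was 182 and 148 CPM (edgeR adjusted p = 0.259). Flt4, the lymphatic VEGF receptor, was tested in 7 classes outside endothelium and called lower in each. Of all genes, 1.71% to 16.0% were called lower in these classes. In mesenchymal-like cells Flt4 fell from 15.3 to 0.314 CPM. A gene that passes the low-count filter through MMPlow alone can only be lower, so this count is a description and supports nothing.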
